A study of Sus scrofa with 9 samples.

Results

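GPNMB and MLANA encode membrane proteins best known from pigment cells, and MITF, TFEB and TFE3 are transcription factors of the MiT/TFE family. These 5 genes, of 30477 gene IDs measured, were followed in porcine embryonic fibroblasts before and after insulin. GPNMB and MLANA were chosen by their own levels, which were low at 48 h and high at 72 h in these libraries. Their values are therefore a description with no test. The 3 factors were taken by family, and their changes were tested to ask whether they moved with GPNMB and MLANA.

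MiT/TFE proteins bind DNA as dimers, at short E-box-type motifs near genes of lysosomes, autophagy and, in pigment cells, melanosomes. TFEB and TFE3 are held in the cytoplasm when the kinase complex mTORC1 phosphorylates them at the lysosome, and they enter the nucleus when that signal drops. Much of their control therefore acts on the protein, which RNA levels do not show. MITF is the central regulator of melanocytes, and GPNMB is a known target of the family in pigment cells, macrophages and osteoclasts.

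The cells are connective tissue cells grown from pig embryos, with no genetic change named in the labels. The control group was untreated and taken at 0 h, and the other groups were taken 48 h and 72 h after insulin, the hormone that promotes nutrient uptake and growth. Each group had 3 libraries, which the submitters call biological replicates, from total RNA cleared of ribosomal RNA. Untreated cells of 48 h or 72 h were not analysed here, so insulin and time in culture cannot be told apart. The sources used here do not give the insulin dose, the medium or the number of embryos behind the cells. These are bulk samples, in which fewer cells of a type and less RNA per cell cannot be told apart.

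Values are FPKM, fragments scaled to gene length and library size, so levels may be compared between genes, but the read depth is unknown. FPKM sums ranged from 487858 to 563656, and 10761 to 10833 genes per library reached 1 FPKM. Changes are differences in log2(FPKM + 1) with their standard error, a scale that understates the change of low genes. The 11063 genes with at least 1 FPKM in at least 3 libraries were tested in limma. Called genes are those with an adjusted p below 0.05, by the method of Benjamini and Hochberg over all 11063. All 5 genes passed that filter.

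GPNMB, a type I membrane glycoprotein of melanosomes and lysosomes, was lowest at 48 h and highest at 72 h. In replicates 1, 2 and 3 it stood at 7.0, 6.41 and 5.85 FPKM at 0 h, at 2.26, 3.49 and 4.14 at 48 h, and at 15.58, 16.84 and 14.26 at 72 h. The libraries of the 3 times did not overlap. That alone is common: 60.0% of tested genes had libraries that did not overlap between 0 h and 48 h, 58.6% between 0 h and 72 h, and 38.9% between 48 h and 72 h. Mean levels were 6.42 ± 0.575, 3.30 ± 0.955 and 15.6 ± 1.29 FPKM (SD, n = 3 each). The 72 h mean was 4.72 times that of 48 h and 2.42 times that of 0 h, and the 48 h mean was 0.513 times that of 0 h. On the log2 scale the changes were -0.81 ± 0.14 from 0 h to 48 h, 1.97 ± 0.14 from 48 h to 72 h, and 1.16 ± 0.14 from 0 h to 72 h. Ranked from the highest change among the 11063 genes, GPNMB was the 5th from 48 h to 72 h.

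MLANA, a small melanosomal membrane protein also called MART-1, was less abundant than GPNMB at each time. Its levels were 1.69, 2.02 and 2.73 FPKM at 0 h, 1.47, 0.84 and 1.93 at 48 h, and 5.56, 4.63 and 6.38 at 72 h. The 72 h libraries lay above all others, while 0 h and 48 h overlapped. Means were 2.15 ± 0.531, 1.41 ± 0.547 and 5.52 ± 0.876 FPKM (SD, n = 3 each), and the 72 h mean was 3.91 times that of 48 h. MLANA changed by -0.40 ± 0.18 from 0 h to 48 h, a value that ranged from -0.55 to -0.21 when single libraries were left out. From 48 h to 72 h it changed by 1.45 ± 0.18, the 10th highest of the tested genes, and from 0 h to 72 h by 1.06 ± 0.18. The 48 h libraries thus lay below those of 0 h for GPNMB and overlapped them for MLANA, and the 72 h libraries lay above all others for both. Both genes were chosen for this pattern, so it was not tested.

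**Figure D1:**
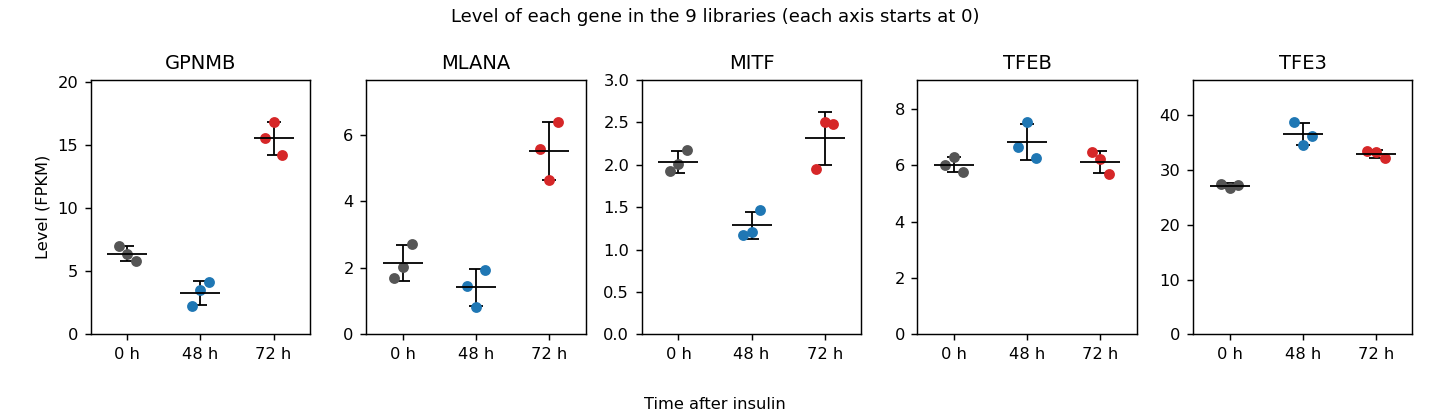
Level in FPKM (vertical axis, starting at 0, with its own scale for each gene) of GPNMB, MLANA, MITF, TFEB and TFE3 at 0 h, 48 h and 72 h after insulin. Points are libraries, and horizontal lines and bars are the mean and SD of 3. GPNMB, MLANA and MITF have their lowest means at 48 h, while TFEB and TFE3 have their highest there.

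MITF fell at 48 h and rose from 48 h to 72 h, to a level that was not called different from 0 h. Its levels were 1.92, 2.01 and 2.17 FPKM at 0 h, 1.17, 1.21 and 1.47 at 48 h, and 1.95, 2.5 and 2.48 at 72 h. The 48 h libraries lay below all others, and those of 0 h and 72 h overlapped. MITF changed by -0.41 ± 0.10 from 0 h to 48 h (limma adjusted p = 0.00541) and by 0.53 ± 0.10 from 48 h to 72 h (limma adjusted p = 0.00325). The difference between 72 h and 0 h, 0.12 ± 0.10, did not pass (limma adjusted p = 0.330). The 48 h mean was 0.631 times that of 0 h, against 0.513 for GPNMB and 0.658 for MLANA. The 72 h mean was 1.14 times that of 0 h, against 2.42 for GPNMB and 2.57 for MLANA.

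Both MITF calls held in each alternative processing that tested it, with changes of -0.63 to -0.38 at 48 h and 0.49 to 0.80 from 48 h to 72 h. Calls were common in these data: 49.9% of tested genes were called for 48 h against 0 h, 45.5% for 72 h against 0 h and 25.4% for 72 h against 48 h. The sequence of a called fall at 48 h and a called rise from 48 h to 72 h was held by 312 genes, or 2.82%. MITF is one of 249 of them, 2.25% of tested genes, that were not called at 72 h against 0 h. These comparisons share libraries, since 48 h enters both the fall and the rise.

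TFE3, the most abundant of the family in these cells, moved the other way at 48 h. It stood at 27.46, 26.64 and 27.19 FPKM at 0 h, at 38.67, 34.59 and 36.23 at 48 h, and at 33.44, 33.27 and 32.13 at 72 h. No libraries overlapped between the 3 times. TFE3 rose by 0.42 ± 0.06 at 48 h (limma adjusted p = 2.34e-04) and was 0.27 ± 0.06 above 0 h at 72 h (limma adjusted p = 0.00280). All 72 h libraries lay below those of 48 h, yet the change of -0.14 ± 0.06 between them did not pass (limma adjusted p = 0.0902). Both calls against 0 h held in each of the 18 alternative settings, at 0.28 to 0.45 and at 0.22 to 0.29.

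TFEB, the family member most often described as a regulator of lysosome formation, showed no called change. Its levels were 6.02, 6.28 and 5.77 FPKM at 0 h, 6.66, 7.53 and 6.27 at 48 h, and 6.47, 6.21 and 5.70 at 72 h. The libraries of each pair of times overlapped. The changes were 0.15 ± 0.08 at 48 h (limma adjusted p = 0.138), 0.02 ± 0.08 at 72 h (0.856), and -0.13 ± 0.08 from 48 h to 72 h (0.243). With library weights in limma the first and the last passed, at 0.28 (adjusted p = 3.61e-04) and -0.23 (adjusted p = 0.00764). Over all settings these adjusted p values ran from 3.61e-04 to 0.751 and from 0.00764 to 0.609. Calls were more common with library weights: 38.2% of all tested genes were higher and 34.6% lower at 48 h. From 48 h to 72 h the weights gave 21.8% higher and 30.3% lower.

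**Figure D2:**
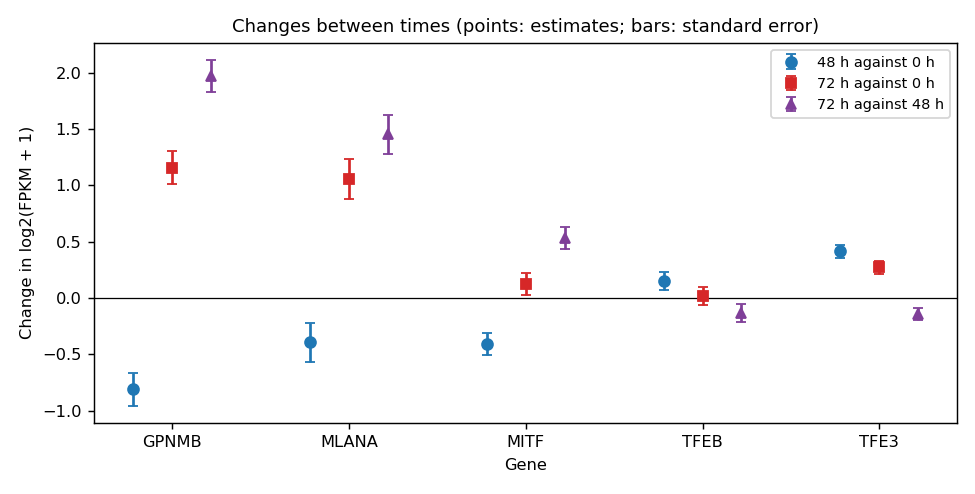
Change in log2(FPKM + 1) (vertical axis) of the 5 genes for 48 h against 0 h (circles), 72 h against 0 h (squares) and 72 h against 48 h (triangles), with bars of 1 standard error from limma. MITF has the signs of GPNMB and MLANA in each comparison, at smaller size from 48 h to 72 h (0.53, against 1.97 and 1.45). For 72 h against 0 h MITF was not called (0.12, against 1.16 and 1.06). TFE3 has the opposite sign at 48 h (0.42).

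TFEC, the remaining family member, known from macrophages, was at 0 to 0.04 FPKM in every library and was not tested. The family's summed level was 35.2 ± 0.241 FPKM at 0 h, 44.6 ± 1.69 at 48 h and 41.4 ± 0.932 at 72 h (SD, n = 3 each). TFE3 held most of it, 77.1% ± 0.696 before insulin, 81.8% ± 1.72 at 48 h and 79.6% ± 0.344 at 72 h. TFEB held 17.1% ± 0.788, 15.3% ± 1.79 and 14.8% ± 0.660. MITF held 5.78% ± 0.377, then 2.88% ± 0.421 and then 5.58% ± 0.810. MITF was thus the smallest of the 3 expressed factors at each time, and its share was lowest at 48 h.

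**Figure D3:**
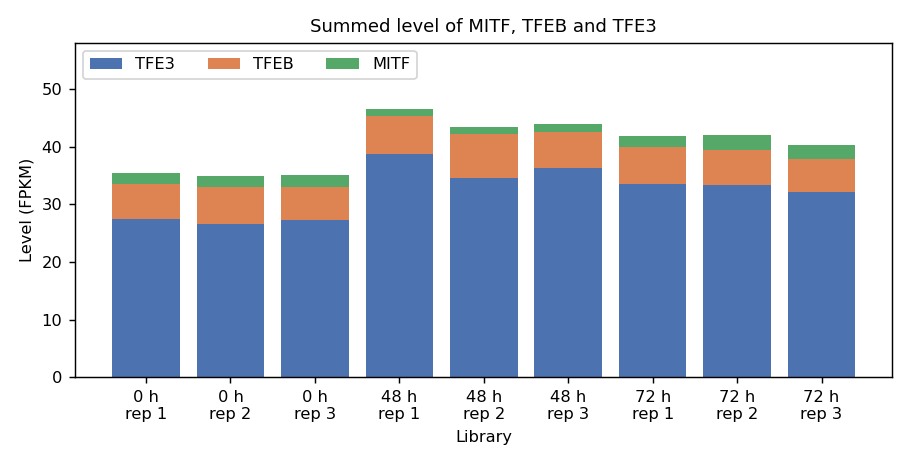
Summed level in FPKM (vertical axis, starting at 0) of TFE3, TFEB and MITF, stacked, in each of the 9 libraries. TFE3 makes up most of each bar, and the MITF segment is thinnest in the 48 h libraries, where its mean share of the family is 2.88%.

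The order of the 5 levels changed with time. At 0 h TFE3 led, GPNMB and TFEB overlapped at means of 6.42 and 6.02 FPKM, and MLANA and MITF overlapped at 2.15 and 2.03. At 48 h TFEB (6.82 ± 0.645) lay above GPNMB (3.30 ± 0.955), and MLANA and MITF again overlapped, at 1.41 and 1.28. At 72 h GPNMB was next to TFE3, TFEB and MLANA overlapped at 6.13 and 5.52, and MITF was lowest at 2.31 ± 0.312.

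Across the 9 libraries, log2 levels of GPNMB correlated with MLANA at Pearson r = 0.897 and with MITF at 0.863, against -0.478 for TFEB and -0.253 for TFE3. MLANA correlated with MITF at 0.797, with TFEB at -0.600 and with TFE3 at -0.0618. These values are descriptions: the libraries form 3 groups that stand apart, and GPNMB and MLANA were chosen for their pattern. MITF ranked 203rd of 11062 genes by likeness to GPNMB and 363rd by likeness to MLANA.

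The genes most like GPNMB were TRIB1 (r = 0.986), PROS1 (0.977), SMPDL3A (0.977), DUSP6 (0.973), JAK1 (0.970) and PLSCR4 (0.969). DUSP6, a phosphatase that turns off ERK, went from a mean of 11.6 FPKM at 0 h to 7.14 at 48 h and 20.6 at 72 h. TRIB1, a pseudokinase adaptor for protein degradation, went from 10.1 to 7.61 and 15.6. PROS1, the ligand protein S of TAM receptors and a cofactor in anticoagulation, moved less, from 37.5 to 33.7 and 44.5. SMPDL3A is a secreted phosphodiesterase, JAK1 a cytokine receptor kinase and PLSCR4 a phospholipid scramblase.

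Among the genes most like MLANA were GAREM1 (r = 0.984), NCEH1 (0.957), SAMTOR (0.956), RABGAP1 (0.953) and NFKBIZ (0.952). NFKBIZ, a nuclear regulator of NF-kB, went from a mean of 11.8 FPKM at 0 h to 24.4 at 72 h, and NCEH1, a cholesteryl ester hydrolase, from 16.3 to 12.7 and 27.7. SAMTOR, a sensor of S-adenosylmethionine for mTORC1, went from 10.1 to 9.81 and 14.3. None of these genes was also among those nearest to GPNMB. Both lists depended on the measure. By Spearman's rho the genes named for GPNMB ranked from 8th (TRIB1) to 118th (DUSP6) among all tested genes. For MLANA, NFKBIZ then ranked 1st, GAREM1 and RABGAP1 3rd, and NCEH1 and SAMTOR 43rd. With a pseudocount of 0.1 TRIB1 stayed the nearest to GPNMB and GAREM1 to MLANA, while SAMTOR ranked 12th and NFKBIZ 18th.

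**Figure D4:**
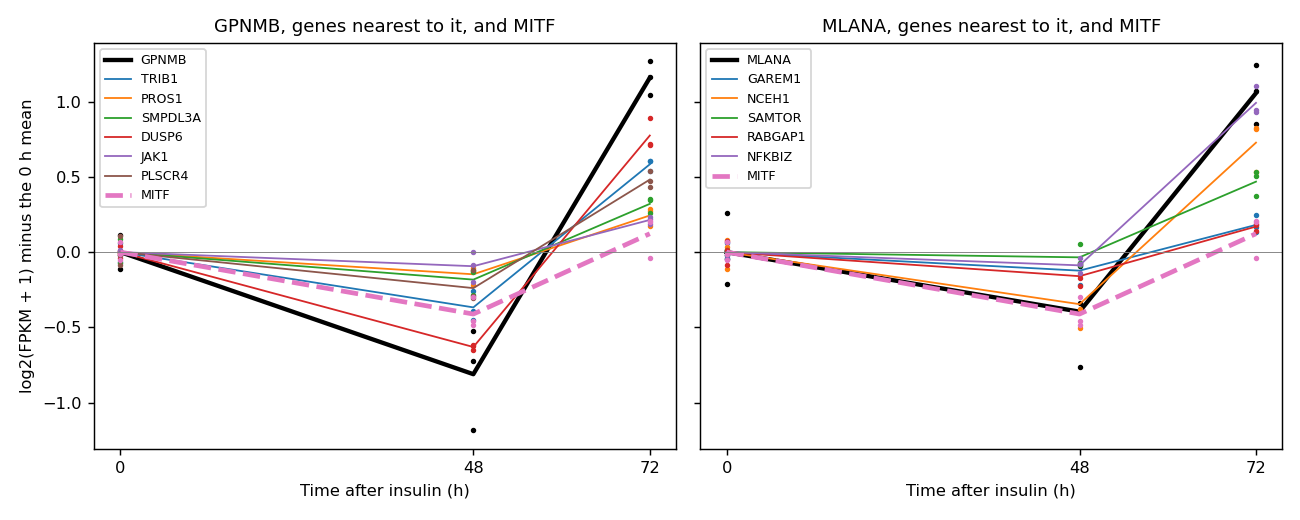
Level as log2(FPKM + 1) minus the gene's 0 h mean (vertical axis) at 0 h, 48 h and 72 h after insulin (horizontal axis, in hours), for GPNMB (left) or MLANA (right), genes nearest to each and MITF (dashed). Lines join group means and points are libraries. GPNMB, which was chosen for this pattern, has a larger dip and a larger 72 h level than its nearest genes. MITF lies near 0 at 72 h (0.12).

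The proteins that control MiT/TFE factors formed a list of 37 genes, of which 32 were matched and 31 tested. At 48 h 9 were called higher and 5 lower, at 72 h 7 higher and 6 lower than at 0 h, and from 48 h to 72 h 0 higher and 6 lower. Their medians, -0.01, 0.00 and -0.03, lay beside 0.02, -0.01 and -0.03 for all tested genes. With each library scaled to equal FPKM sums, the 48 h counts were 6 higher and 8 lower, beside 17.7% and 33.4% of all genes. The 3 scalings left 2 or 3 lower from 48 h to 72 h, beside 10.2% to 12.5% of all genes. In the reported fit the shares of all genes called higher were 27.6%, 23.0% and 9.17%, and of those called lower 22.4%, 22.5% and 16.3%.

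MTOR, the kinase of mTORC1, fell from 14.40, 14.28 and 14.05 FPKM at 0 h to 9.33, 9.79 and 10.64 at 48 h (-0.48 ± 0.07, limma adjusted p = 2.41e-04). It was still lower at 72 h (-0.34 ± 0.07, limma adjusted p = 0.00180). FLCN, folliculin, which lets mTORC1 act on TFEB and TFE3, went the other way, from 13.41, 13.62 and 13.35 to 23.18, 21.47 and 17.47 FPKM (0.58 ± 0.10, limma adjusted p = 0.00129). It stayed high at 72 h (0.53 ± 0.10, limma adjusted p = 0.00203). Neither gene was called between 48 h and 72 h, the step in which GPNMB, MLANA and MITF were higher.

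Folliculin's partners FNIP1 and FNIP2 and the lysosomal calcium channel MCOLN1 were at 10.56 to 11.86, 5.2 to 5.36 and 6.7 to 7.29 FPKM at 0 h. None of the 3 was called in any comparison, with changes between -0.08 and 0.14. RRAGC, a Rag GTPase that brings mTORC1 and TFEB to lysosomes, rose from a mean of 60.5 to 75.8 FPKM at 72 h (0.32 ± 0.06). Its partner RRAGD was at 0.21 to 0.68 FPKM and was not tested. LAMTOR1, the lysosomal anchor of the Rag GTPases, rose from 105 to 199 FPKM at 48 h (0.91 ± 0.14) and was at 210 at 72 h. TSC2, an inhibitor of mTORC1 signalling, rose by 0.35 ± 0.07 at both times.

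XPO1, the nuclear exporter of TFEB and TFE3, fell from 42.4 to 32.5 FPKM at 48 h (-0.37 ± 0.06) and to 30.7 at 72 h (-0.45 ± 0.06). YWHAH, one of the adaptors that hold phosphorylated factors in the cytoplasm, was at 78.8 and 78.6 FPKM at 0 h and 48 h. It fell to 58.5 at 72 h (-0.42 ± 0.07 against 48 h, limma adjusted p = 0.00242). GSK3B, a kinase of these factors, fell by 0.29 ± 0.10 at 48 h (limma adjusted p = 0.0285), a call lost when any of 4 single libraries was left out (adjusted p from 0.0531 to 0.117: 0 h replicates 2 and 3, 48 h replicates 1 and 2).

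LAMTOR2, another part of the lysosomal anchor, went from 17.1 to 25.2 and 20.3 FPKM. Its rise at 48 h was 0.53 ± 0.09 (limma adjusted p = 9.06e-04). Its fall from 48 h to 72 h, -0.29 ± 0.09 (adjusted p = 0.0402), and that of MLST8, an mTORC1 subunit, -0.33 ± 0.10 (adjusted p = 0.0348), were lost when 7 and 5 of the 9 libraries were left out singly (up to adjusted p = 0.126 and 0.113).

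Genes of lysosomes and autophagy that MiT/TFE factors are known to target formed a list of 48 symbols, 45 matched and 42 tested. It shares RRAGC, RRAGD, FLCN, FNIP1, FNIP2 and MCOLN1 with the control list. At 48 h 22 (52.4%) were called higher and 2 lower, with a median of 0.19. At 72 h 28 (66.7%) were called higher than at 0 h and 2 lower, with a median of 0.36. From 48 h to 72 h 18 (42.9%) were called higher and 0 lower, with a median of 0.17. The shares for all tested genes are the 27.6%, 23.0% and 9.17% given above.

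The 48 h count depended on scaling, with 9 called higher and 4 lower at equal FPKM sums (median 0.06), 12 and 4 when scaled to protein-coding genes, and 13 and 3 after quantile normalization. Under these scalings 17.7%, 19.2% and 24.1% of all tested genes were called higher and 33.4%, 30.8% and 24.8% lower. Leaving out single libraries gave 14 to 23, the lowest without 0 h replicate 3. The same scalings gave 26 or 27 higher at 72 h, beside 19.5% to 23.6% of all genes, and 21 higher from 48 h to 72 h, beside 11.9% to 12.9%. Only GLB1, 1 of 42 targets (2.38%), was called lower at 48 h and then higher at 72 h, the sequence shown by MITF and by 2.82% of all tested genes.

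SQSTM1, the autophagy receptor p62, stood at 131.98, 125.24 and 123.20 FPKM at 0 h, 176.25, 195.05 and 178.94 at 48 h, and 222.94, 258.89 and 215.73 at 72 h. It rose at each step, by 0.53 ± 0.07 (limma adjusted p = 2.62e-04) and then 0.34 ± 0.07 (limma adjusted p = 0.00885). SGSH, a lysosomal sulfatase, rose from a mean of 14.9 to 25.6 FPKM at 48 h (0.73 ± 0.09) and was at 30.8 at 72 h (0.99 ± 0.09 against 0 h). No library of either gene at 48 h or 72 h overlapped those of 0 h, so neither showed the 48 h dip of GPNMB.

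Of 4 tested cathepsins on the list, CTSA, CTSB and CTSD were called higher from 48 h to 72 h, and CTSF was not (0.16 ± 0.08, limma adjusted p = 0.136). CTSB, a cysteine protease, went from 438 to 496 and 716 FPKM, with 0.53 ± 0.05 from 48 h to 72 h (limma adjusted p = 7.81e-05). CTSD, an aspartic protease, went from 152 to 189 and 253, with 0.42 ± 0.08 (limma adjusted p = 0.00401), and CTSA, a carboxypeptidase, from 126 to 144 and 196, with 0.44 ± 0.06 (limma adjusted p = 5.71e-04). The rises of CTSB and CTSA at 48 h, 0.18 and 0.19, were lost under all 3 scalings, and that of CTSD, 0.32 ± 0.08, after quantile normalization (adjusted p = 0.200).

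LAMP2, a lysosomal membrane protein, was at 61.8 and 64.2 FPKM at 0 h and 48 h and rose to 93.6 at 72 h (0.55 ± 0.09 against 48 h, limma adjusted p = 0.00189). LAMP1, its relative, rose by 0.34 ± 0.07 from 0 h to 72 h (limma adjusted p = 0.00196). GLB1, the lysosomal beta-galactosidase, fell from 75.5 to 54.1 FPKM at 48 h (-0.47 ± 0.05) and was at 61.2 at 72 h. Its rise from 48 h to 72 h, 0.18 ± 0.05 (limma adjusted p = 0.0294), was lost without 0 h replicate 3, 48 h replicate 2 or 72 h replicate 1 or 3 (adjusted p up to 0.110). ATP6V1C1, a subunit of the lysosomal proton pump, fell by 0.30 ± 0.06 from 0 h to 72 h (limma adjusted p = 0.00125).

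**Figure D5:**
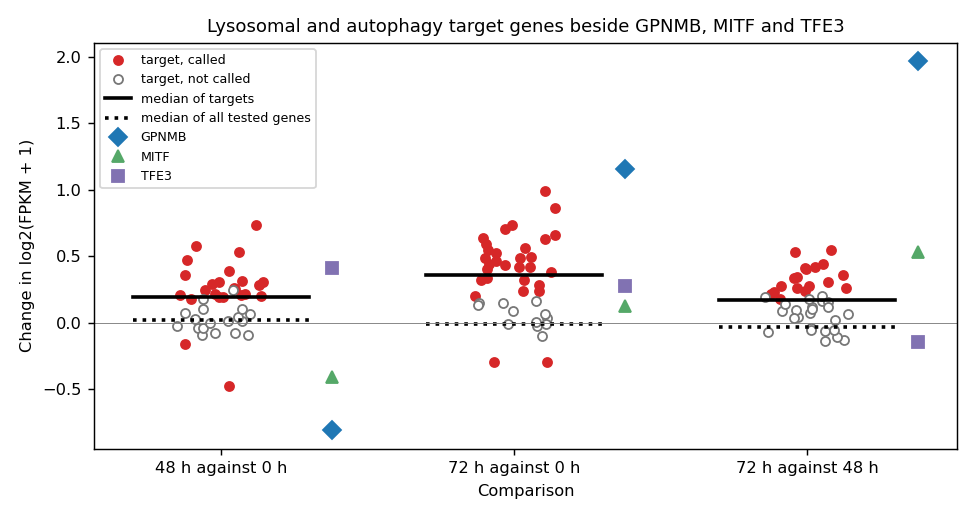
Change in log2(FPKM + 1) (vertical axis) of the 42 tested lysosomal and autophagy targets in 3 comparisons, with called genes filled, the target median as a solid line and the median of all tested genes dotted. GPNMB, MITF and TFE3 stand to the right of each column. From 48 h to 72 h the target median is 0.17. GPNMB (1.97) lies above all 42 targets, but it was chosen for its rise in this step.

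Of 10 matched pigment genes other than MLANA, 8 were below 1 FPKM in every library, and SLC45A2 and RAB27A passed the filter. PMEL, the melanosome fibril protein and closest relative of GPNMB, was at 0.12 to 0.32 FPKM in the 9 libraries. The pigment enzymes TYR, TYRP1 and DCT were at 0 to 0.06, 0 to 0.08 and 0 to 0.10 FPKM. SOX10, the neural crest factor that switches on MITF in melanocytes, was at 0 to 0.26. In the 72 h libraries, where MLANA stood at 4.63 to 6.38 FPKM, each of these 5 genes was below 1 FPKM.

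SLC45A2, a melanosomal transporter, was more abundant than MLANA at each time. It went from a mean of 12.5 FPKM at 0 h to 14.6 at 48 h and 18.4 at 72 h, and rose from 48 h to 72 h by 0.32 ± 0.07 (limma adjusted p = 0.00824). Its change at 48 h, 0.21 ± 0.07 (limma adjusted p = 0.0277), was lost in the fits without 0 h replicate 2 or 48 h replicate 1, at equal FPKM sums and under the protein-coding scaling (adjusted p from 0.0752 to 0.317). RAB27A, which moves melanosomes and other secretory organelles, was lower at both times (-0.31 ± 0.11 and -0.30 ± 0.11). Those calls were lost when 4 and 5 of the 9 libraries were left out singly (adjusted p up to 0.141 and 0.176). Without the filter both were lost too (adjusted p = 0.0869 at 48 h). The 72 h call was also lost with a pseudocount of 0.1 and after quantile normalization (adjusted p up to 0.106 over these settings).

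Of 19 tested genes of melanosome and lysosome-related organelle trafficking, 1 was called higher and 4 lower at 48 h, 4 higher and 2 lower at 72 h, and 2 higher and 1 lower from 48 h to 72 h. Of all tested genes 27.6% and 22.4%, 23.0% and 22.5%, and 9.17% and 16.3% were called higher and lower in these comparisons. The list medians were -0.05, 0.01 and 0.05. Equal FPKM sums gave 8 lower at 48 h, where 33.4% of all genes were called lower. BLOC1S1, a subunit of organelle biogenesis complexes, rose from 28.4 to 44.6 FPKM at 48 h (0.63 ± 0.11, limma adjusted p = 8.84e-04). LYST, the lysosomal trafficking regulator, was lower at 48 h (-0.38 ± 0.09), as were AP3M1 (-0.29 ± 0.08) and VPS33A (-0.25 ± 0.07). HPS1 was 0.40 ± 0.09 higher at 72 h than at 0 h, SNAPIN 0.34 ± 0.09 and HPS3 0.30 ± 0.07, while AP1B1 was lower (-0.41 ± 0.06).

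The copper transporter ATP7A, which supplies copper to tyrosinase, had the pattern of means 4.43, 3.58 and 4.81 FPKM. It was called from 48 h to 72 h (0.35 ± 0.11, limma adjusted p = 0.0329), a call lost without 48 h replicate 1 or 2 or 72 h replicate 1 or 3 (adjusted p up to 0.0952). HPS3 was called there too (0.24 ± 0.07), and lost in 5 of 9 such fits (adjusted p up to 0.0986). AP1B1 fell in that step (-0.27 ± 0.06, limma adjusted p = 0.00763).

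Of 8 matched genes that act upstream of MITF in pigment cells, 4 were tested, with medians of -0.26, -0.30 and 0.01, and none was called higher in the reported fit. From 48 h to 72 h 9.17% of all genes were called higher in that fit. In this step library weights called 2 of the 4 higher, beside 21.8% of all genes. The fit without 48 h replicate 3 called 1, beside 13.5%. At 48 h 1, LEF1, was called lower, beside 22.4% of all genes, and 3 at equal FPKM sums, beside 33.4%. KIT, the receptor that signals to MITF, was at 1.40, 1.44 and 1.06 FPKM at 0 h, 0.79, 1.17 and 1.03 at 48 h, and 0.41, 0.58 and 0.58 at 72 h. It was lowest at 72 h, when MITF was above its 48 h level (-0.59 ± 0.11 against 0 h, limma adjusted p = 0.00127). KITLG, its ligand, fell by 0.49 ± 0.14 from 0 h to 72 h (limma adjusted p = 0.0156, and 0.0517 without 72 h replicate 2). LEF1, a Wnt pathway factor that works with MITF, was lower at 48 h (-0.28 ± 0.09, limma adjusted p = 0.0209), and that call was lost without 0 h replicate 2 or 3 or 48 h replicate 3 (adjusted p up to 0.0749). KIT's fall from 48 h to 72 h (-0.39 ± 0.11, limma adjusted p = 0.0266) was lost without 48 h replicate 2 or 72 h replicate 1 or 3 (adjusted p up to 0.0985).

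Of 8 matched genes for proteins reported to cleave or bind GPNMB, 2 were called higher and 4 lower at 48 h, 2 higher and 3 lower at 72 h, and 2 in each direction from 48 h to 72 h. Under the 3 scalings 0 were higher at 48 h, beside 17.7% to 24.1% of all genes. From 48 h to 72 h they left 0 or 1 lower, beside 10.2% to 12.5% of all genes. In the reported fit the shares of all genes called higher were 27.6%, 23.0% and 9.17%, and lower 22.4%, 22.5% and 16.3%. The list medians were -0.06, -0.15 and 0.06. ITGB3, an integrin subunit, went from 22.33, 22.55 and 21.91 FPKM at 0 h to 9.98, 12.41 and 12.24 at 48 h and 16.32, 15.38 and 15.04 at 72 h. It fell by 0.90 ± 0.08 (limma adjusted p = 1.3e-05) and then rose by 0.41 ± 0.08 (limma adjusted p = 0.00506), staying below 0 h. ITGB1 and ITGA5, subunits of the fibronectin receptor that GPNMB can bind, fell at 48 h by 0.60 ± 0.08 and 0.37 ± 0.05. EGFR, a growth factor receptor, rose in the later step (0.46 ± 0.09, limma adjusted p = 0.00355).

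FGFR1, another receptor, was 0.31 ± 0.08 above 0 h at 72 h (limma adjusted p = 0.00715). ADAM10, the protease that sheds the GPNMB ectodomain, was at means of 21.8, 18.6 and 19.3 FPKM. Its change of -0.22 ± 0.07 at 48 h (limma adjusted p = 0.0290) was lost without any 0 h library or 48 h replicate 1 or 2 (adjusted p up to 0.0983). CD44, a receptor for GPNMB, was at 163, 190 and 170 FPKM, and its change at 48 h, 0.22 ± 0.05, was lost under all 3 scalings (adjusted p up to 0.583).

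Other factors that bind E-boxes numbered 8, all tested, with 4 called higher and 2 lower at 48 h, 4 and 0 at 72 h, and 2 and 1 from 48 h to 72 h. All tested genes were called higher and lower at shares of 27.6% and 22.4%, 23.0% and 22.5%, and 9.17% and 16.3%. The medians of the 8 were 0.30, 0.15 and 0.03. MYC, the growth regulator, was at 45.75, 44.68 and 44.80 FPKM at 0 h, 35.58, 35.80 and 34.90 at 48 h, and 43.07, 46.82 and 54.01 at 72 h. It fell by 0.34 ± 0.07 (limma adjusted p = 0.00383) and rose by 0.42 ± 0.07 (limma adjusted p = 0.00297), the sequence of MITF. BHLHE40, a repressor of the circadian system, rose at both steps, from 78.5 to 128 and 161 FPKM. MAX, MLX and USF2 rose at 48 h, by 0.44 ± 0.11, 0.39 ± 0.07 and 0.35 ± 0.07. USF1 was the gene called lower from 48 h to 72 h (-0.24 ± 0.08, limma adjusted p = 0.0448), a call lost under all 3 scalings and in 7 of 9 fits with a library left out (adjusted p up to 0.144). MLXIP was lower at 48 h (-0.26 ± 0.08, limma adjusted p = 0.0250), a call lost without 0 h replicate 2 or 3 or 48 h replicate 1 or 2 (adjusted p up to 0.0844).

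GPNMB (ENSSSCG00000032241) spans 92037428 to 92071501 of chromosome 9, in a RefSeq table of the build Sscrofa11.1. MLANA (ENSSSCG00000005206) lies on chromosome 1 at 216230472 to 216247171. MITF (ENSSSCG00000011514) spans 51177356 to 51422096 on chromosome 13, with 13 RefSeq transcripts that these gene values do not separate. TFEB (ENSSSCG00000001621) lies on chromosome 7 at 36870240 to 36920887, and TFE3 (ENSSSCG00000012287) on chromosome X at 43100375 to 43116377. All 5 are protein-coding and none overlaps another RefSeq gene in the table.

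Of the 4 tested neighbours of GPNMB, none was called higher from 48 h to 72 h, and of the 4 of MLANA only IL33 was. Of all tested genes 9.17% were called higher there, so few calls among so few genes are common. MALSU1, a mitochondrial ribosome factor 16908 bases from GPNMB, changed by 0.45 ± 0.10 at 48 h and by -0.23 ± 0.10 from 48 h to 72 h, where it was not called. KLHL7 and IGF2BP3 were not called in any comparison, and TOMM7, of the mitochondrial import pore, rose at 48 h (0.57 ± 0.08). Beside MLANA, ERMP1 at 65656 bases, RIC1 and RANBP6 changed by -0.41 to -0.24 at 48 h. Each was called lower there (limma adjusted p from 0.00847 to 0.0468), as were 22.4% of all tested genes. IL33, an alarm cytokine 288528 bases from MLANA, rose already at 48 h, from 0.533 to 3.87 FPKM (1.67 ± 0.08), and then to 5.29 at 72 h (0.37 ± 0.08).

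Markers of the cells were those of fibroblasts: all 11 matched fibroblast genes were tested, with a summed level of 20992 to 24327.9 FPKM. The 7 melanocyte markers summed to 1.47 to 1.81 FPKM at 0 h, 1.30 to 2.05 at 48 h and 0.92 to 1.15 at 72 h, and 6 of them were below 1 FPKM in every library. The lower sum at 72 h was that of KIT: without it the other 6 summed to 0.32 to 0.41, 0.45 to 0.88 and 0.51 to 0.57 FPKM. The 15 macrophage markers summed to 1.63 to 2.53, 4.30 to 5.29 and 3.87 to 5.56 FPKM. Of these PTPRC, CD163 and C1QA were at 0 in every library, and only CD14 passed the filter, at 1.49 to 2.01, 3.48 to 4.94 and 3.26 to 4.64 FPKM.

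The 7 matched osteoclast markers summed to at most 0.36 FPKM, with CALCR, DCSTAMP and OCSTAMP at 0 throughout. The 4 matched adipocyte markers summed to at most 0.14 FPKM, with ADIPOQ and LEP at 0 throughout. Of 6 matched Schwann cell and neural crest markers only ERBB3 was tested, and the sums were 6.47 to 7.13, 13.97 to 14.97 and 10.27 to 16.24 FPKM. Of 4 pigment epithelium markers only RLBP1 was tested, at 25.64 to 29.22 FPKM over the 9 libraries. The part of the CD14 and ERBB3 levels, which were higher at 48 h and 72 h than at 0 h, in the results on GPNMB and MLANA was not tested.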

How the data were processed

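RNA of 9 libraries was deposited as FPKM values, 1 per gene and library, computed by the authors per the file headers. Tools listed in the submitters' processing notes, without role or order, are RSEM 1.2.28, HISAT2 2.1.0, DESeq2 and featureCounts 2.0.2, with the build Sscrofa11.1. The sources used here do not say whether strand was used. Of 30477 gene IDs 14864 had a symbol, and genes are matched by symbol. FPKM carries no read counts, so depth is unknown and precision rests on the spread between libraries. FPKM is scaled within a library, so a rise of abundant transcripts lowers all others.

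Values were taken as log2(FPKM + 1). The 11063 genes (9875 with a symbol) that reached 1 FPKM in 3 or more libraries entered 1 model, with a term for group, in R 4.3.3 with limma 3.58.1. Its empirical Bayes step used a trend. Tests were two-sided, with Benjamini-Hochberg adjustment over all tested genes. The fit was tested on simulated data with independent noise, in which few genes changed, all upward and at 72 h only. That test does not cover changes in both directions or shifts in scaling. Each p-value sets a difference between groups against the spread of these libraries within groups, drawn by limma towards a trend over all tested genes.

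The members and lists were chosen with earlier results of these data known. By rule, the text names the 5 genes and TFEC, the 3 largest called rises and falls of each list and comparison, 17 matched genes whatever their values, the 6 nearest genes by Pearson r, and the 2 nearest tested neighbours on each side. Not all of these are described, and values of some genes are not reported here. Of the listed symbols, 21 were not matched, SDC4 among them, and were not analysed here. Alternatives varied the pseudocount, filter, scaling, library weights, variance trend and libraries.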

Additional observations from a re-analysis of the deposited data

How the results depend on the processing

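Most values kept their direction and side of the threshold over the 18 alternatives. Library weights gave 5756 genes called for 72 h against 48 h in place of 2814, and leaving out single libraries gave 1727 to 3693, the lowest without 48 h replicate 2. Library weights also brought TFEB past the threshold at 48 h (0.28), where they called 38.2% of all genes higher, and from 48 h to 72 h (-0.23). They moved MLANA to -0.74 at 48 h and 1.81 from 48 h to 72 h. With a pseudocount of 0.1, GPNMB changed by 2.24 and MLANA by 1.95 from 48 h to 72 h, and MLANA by 1.34 from 0 h to 72 h, as low values are shrunk less. TFEB at 72 h against 0 h turned from 0.020 to -0.028 at equal FPKM sums and to -0.012 when scaled to protein-coding genes, and ranged from -0.014 to 0.064 with single libraries left out. Without a filter, the median of the pigment genes from 48 h to 72 h was -0.0046 and that of the genes upstream of MITF at 72 h against 0 h was 0.021, where more genes of low level enter. The cause of the other differences was not tested.

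Equal FPKM sums moved the median of all genes at 48 h from 0.02 to -0.10, and the share of calls that were higher from 55.2% to 34.7%. It was 38.4% when scaled to protein-coding genes. For 72 h against 48 h the share went from 36.0% to 55.9%, 55.1% and, after quantile normalization, 48.6%. MITF and MLANA did not reach a mean FPKM of 5 and have no value under that filter.

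The replicate numbers share no stated source. Deviations of same-numbered libraries correlated at -0.07 to 0.19, so the numbers were not taken as pairs. A replicate block called 5632, 5152 and 3031 genes, against 5524, 5029 and 2814 without it, and 6822 against 6704 by the F-test, and changed no call of MITF, TFEB or TFE3. Low levels limit MLANA and MITF most, at 0.84 to 2.73 FPKM before 72 h.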
